A study of Mus musculus with 6 samples.

Results

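Enolase converts 2-phosphoglycerate to phosphoenolpyruvate, the step of glycolysis just before pyruvate kinase. In mammals the enzyme is a dimer built from subunits of separate genes: Eno1 encodes the widely expressed alpha subunit, Eno2 the gamma subunit of neurons and neuroendocrine cells, and Eno3 the beta subunit of muscle. Alpha enolase is the main form in glia, and ENO1 is known in human cells as a target of the hypoxia-inducible factor HIF-1. The mouse genome also holds copies of Eno1 made by retrotransposition of its spliced messenger RNA. Here 5 genes were followed, Eno1, Eno1b, Gm4735, Eno2 and Eno3, picked by gene name from the 54532 genes of a deposited count table. They were picked with earlier results of the same comparison known, among them the low level of Eno1b in knockout cultures. Their values are therefore given as a description with no p-value.

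Primary cortical astrocytes of mouse pups, grown in culture, gave the RNA. Knockout cultures (3 libraries) were labelled GFAP-Cre::NEOf/f and Neo1 knockout: Cre recombinase under the GFAP promoter deletes a floxed Neo1, the gene of the receptor neogenin, in cells that have used that promoter. Control cultures (3 libraries) came from littermates, per the series' design text, and are labelled only as controls, with library names that give the floxed gene without Cre. The labels call the replicates biological. They leave out age, strain and pooling of pups and name no litter or culture, so the spread between replicates may still be partly technical. Total counts ran from 60819277 to 106081115 per library. Knockout replicate 2 stood apart: its chi-square per gene was 21.8 and 19.2 against the other knockout libraries, which were at 5.97 from each other, and it had 22076 detected genes against 23958 to 25767 in the other 5 libraries. Without it the log2 fold changes were −0.14 for Eno1, −3.13 for Eno1b, −4.80 for Gm4735 and 0.14 for Eno2. Further values without it are given below, with the list counts in the closing section. Control replicate 3 was likewise further from the other control libraries, at 14.8 and 16.9, than these were from each other, at 6.71. Without control replicate 3 the log2 fold changes were −0.20 for Eno1, −3.24 for Eno1b, −4.94 for Gm4735 and 0.06 for Eno2. Neo1 itself had 101, 106 and 105 CPM in knockout libraries, against 189, 189 and 198 CPM in control libraries (log2 fold change −0.89, SE 0.05, adjusted p = 5.8e-11 by edgeR's quasi-likelihood test). CPM is the read count relative to library size, here scaled with TMM factors, which correct for differences in RNA composition. Every log2 fold change is of knockout over control.

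The labelled cell type is set here beside 12 astrocyte markers, all of which were detected. Markers of the other cell types listed in this report were all detected too, so detection alone does not check the cell type. Gfap had 431 ± 3.85 CPM in knockout and 946 ± 20.8 CPM in control cultures, and Aqp4 had 879 ± 31.2 CPM in knockout and 605 ± 35.5 CPM in control cultures (SD, n = 3). Gja1 had 362 ± 19.3 CPM in knockout and 420 ± 9.57 CPM in control cultures. Of the 12 markers, 2 were higher and 8 lower in knockout cultures at an adjusted p under 0.05. Among all tested genes 19.6% were higher and 18.7% lower at that threshold, which is the background for the counts of every marker list. The summed level of the 12 ran from 2862 to 2996 CPM in knockout and from 3229 to 3299 CPM in control libraries. Of 12 microglial and macrophage markers, 1 was higher and 9 lower, with sums of 51.0 to 56.0 CPM in knockout and 85.8 to 90.1 CPM in control libraries. Cd68, the most abundant of them, did not pass that threshold, with 18.7 ± 1.21 CPM in knockout and 18.7 ± 2.46 CPM in control cultures. Csf1r (8.47 ± 0.129 CPM in knockout and 16.1 ± 1.53 CPM in control cultures) was lower. C1qb (2.93 ± 0.678 CPM in knockout and 11.5 ± 0.619 CPM in control cultures) was lower as well. The fibroblast and meningeal list has 8 genes, 6 of them higher and 1 lower. The collagen genes Col1a1 (2976 ± 282 CPM in knockout and 1949.8 ± 80.7 CPM in control cultures) and Col1a2 (1507 ± 60.8 CPM in knockout and 864 ± 18.1 CPM in control cultures) were higher, and Vim, an intermediate filament gene that astrocytes also express, was lower (3932 ± 140.2 CPM in knockout and 5641 ± 206 CPM in control cultures). The sums, to which Vim gives the most, were 8438 to 9291 CPM in knockout and 8417 to 8930 CPM in control libraries. No marker of these 3 lists was at 0 in all libraries. Their part in the enolase values below was not tested, and in bulk RNA fewer cells of a type and less RNA per cell cannot be told apart.

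Eno1 (ENSMUSG00000063524) lies on chromosome 4, 150236721 to 150248879, plus strand, build GRCm38, and its principal transcript has 12 exons. Eno1b (ENSMUSG00000059040) lies on chromosome 18, 48045335 to 48048412, plus strand, and is annotated as a protein-coding retrogene with 2 exons. Gm4735 (ENSMUSG00000064193) lies on chromosome 2, 80837141 to 80838442, plus strand, and is annotated as a processed pseudogene of 1 exon and 1302 bases. Eno2 (ENSMUSG00000004267) lies on chromosome 6, 124760053 to 124769673, minus strand, and Eno3 (ENSMUSG00000060600) on chromosome 11, 70657202 to 70662513, plus strand, each with 12 exons. No exon of the 5 genes overlaps an exon of another annotated gene.

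The copies are nearly the same sequence as Eno1, and how reads were divided among them depends on few bases. Over the 1302 bases that Gm4735 shares with the Eno1 coding sequence, 1297 are identical and 5 differ (99.6% identity). Eno1b differs from Eno1 at 8 of 1305 coding bases (99.4% identity), and Gm4735 and Eno1b differ from each other at 3. Written as the Eno1 base, its position counted from 1 at the start codon, and the Gm4735 base, the 5 differences are T726C, T816G, A1056G, T1224C and C1233T. All 5 fall on the third base of a codon. Eno1b holds the same base as Gm4735 at all 5 of them. Gm4735 starts with ATG and holds no stop codon in the Eno1 reading frame over its annotated length, which ends just before the stop codon of Eno1.

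The 4 stretches below, from GENCODE transcripts of GRCm38, are shown because they hold all the bases that separate Gm4735 from Eno1. Each is 60 bases, 5′ to 3′, with the differing bases in capitals, and the Gm4735 stretches begin at positions 80837836, 80837926, 80838166 and 80838338 of chromosome 2.
Eno1, coding bases 696 to 755: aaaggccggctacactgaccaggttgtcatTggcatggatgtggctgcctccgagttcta
Gm4735, same bases: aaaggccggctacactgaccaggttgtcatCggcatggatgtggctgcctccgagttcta
Eno1, coding bases 786 to 845: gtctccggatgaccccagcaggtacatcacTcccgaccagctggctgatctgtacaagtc
Gm4735, same bases: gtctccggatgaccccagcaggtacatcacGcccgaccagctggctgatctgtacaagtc
Eno1, coding bases 1026 to 1085: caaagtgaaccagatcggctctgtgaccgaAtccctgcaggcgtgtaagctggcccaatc
Gm4735, same bases: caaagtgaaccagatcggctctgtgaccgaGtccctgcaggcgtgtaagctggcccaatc
Eno1, coding bases 1198 to 1257: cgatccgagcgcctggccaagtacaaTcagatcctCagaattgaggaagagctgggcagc
Gm4735, same bases: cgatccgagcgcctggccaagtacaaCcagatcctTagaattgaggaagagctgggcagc

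The first 725 coding bases of Eno1 match both copies without a difference. Of 1153 windows of 150 bases over the shared coding sequence, 684 (59.3%) hold no base that separates Eno1 from Gm4735, and 675 (58.5%) none that separates it from Eno1b. Junctions between exons of Eno1 fall in many of those windows, and 115 (9.97%) hold neither a difference from Gm4735 nor a junction. A junction does not separate the genes by sequence. Gm4735 matches the spliced Eno1 sequence, so a window across a junction but without a difference holds the same bases in both. How reads across junctions were placed was not tested. For windows of 50 bases the shares without a difference are 83.3% for Gm4735 and 80.7% for Eno1b. Eno2 and Eno3 are far from this cluster: their coding sequences match Eno1 at 75.1% and 76.7% of 1305 bases, and no annotated transcript matched theirs at 95% identity over 100 bases or more. No source used here gives the read length or the treatment of reads with several possible positions. A count of Eno1, Eno1b or Gm4735 is therefore uncertain as a measure of that gene alone.

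**Figure D1:**
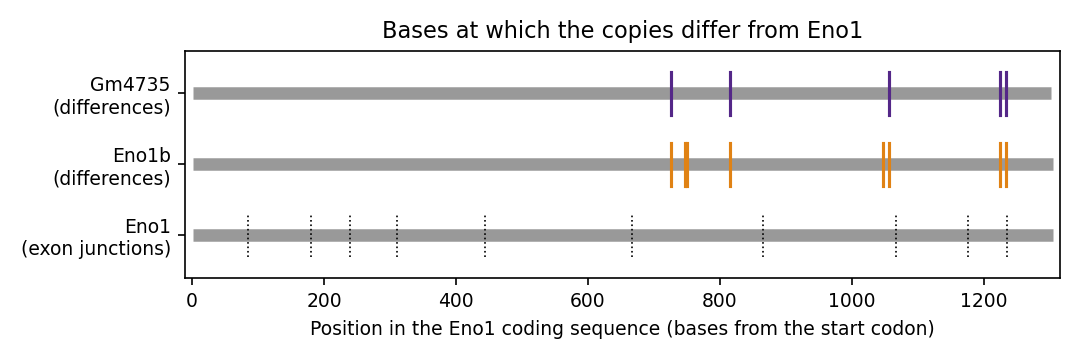
Positions along the Eno1 coding sequence, in bases from the start codon, at which Gm4735 (top) and Eno1b (middle) differ from Eno1, with the exon junctions of Eno1 as dotted lines (bottom). Gm4735 differs at 5 positions and Eno1b at the same 5 plus 3 more, all after base 725.

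Both copies had far lower counts in the knockout cultures. Gm4735 had 589, 387 and 428 counts in knockout replicates 1, 2 and 3, against 11144, 12039 and 16236 counts in control replicates 1, 2 and 3. Scaled for depth these were 6.17, 5.29 and 5.85 CPM in knockout libraries, against 179, 175 and 149.9 CPM in control libraries. Each knockout library lay below every control library by more than an order of magnitude, and within each group the libraries were close together. The means were 5.77 ± 0.445 CPM in knockout and 168 ± 15.7 CPM in control cultures (SD, n = 3), a fold of 0.0345 and a log2 fold change of −4.86 (SE 0.08).

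Eno1b, the retrogene that keeps an intact reading frame, had 1610, 1086 and 1221 counts in knockout libraries, against 9401, 10621 and 14786 counts in control libraries. These were 16.9, 14.8 and 16.7 CPM in knockout and 151, 154 and 137 CPM in control libraries, again with no overlap. The log2 fold change was −3.19 (SE 0.07), a fold of 0.110. Ordered from the most negative log2 fold change, Gm4735 stood at place 9 and Eno1b at place 19 of 18530 tested genes, of which 20 (0.108%) were at −3 or below.

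Eno1, the parent gene and the source of most enolase counts, differed much less. It had 877, 847 and 878 CPM in knockout libraries, against 986, 1000.03 and 919 CPM in control libraries. The groups did not overlap, but the lowest control library, replicate 3, was 919 CPM and the highest knockout library 878 CPM. The means were 867 ± 17.7 CPM in knockout and 968 ± 43.4 CPM in control cultures (SD, n = 3), a fold of 0.896 and a log2 fold change of −0.16 (SE 0.04). It ranked 92 of 18530 tested genes by mean CPM.

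The plot of CPM by library sets these values beside those of Eno2 and Eno3. Eno2, the neuronal enolase, had 23.5, 19.9 and 21.5 CPM in knockout libraries, against 20.6, 20.9 and 19.9 CPM in control libraries. Its groups overlapped, and the log2 fold change was 0.08 (SE 0.08). Eno3, the muscle enolase, had 3.06, 4.67 and 2.82 CPM in knockout libraries, against 4.18, 5.10 and 4.78 CPM in control libraries. Knockout replicate 2 lay within the control range and the other 2 knockout libraries below it. The log2 fold change was −0.42 (SE 0.19), or −0.67 without knockout replicate 2. Among all settings run, Eno3 passed the threshold used below only without that library, and nothing is read from this. All 5 genes passed the filter on low counts. Past the threshold of an adjusted p under 0.05, with all libraries, were 3 of the 5, Eno1, Eno1b and Gm4735, all lower in knockout cultures, and the same 3 did not overlap between groups. Of all tested genes 38.3% passed that threshold and 18.7% passed it in the lower direction, while 49.3% did not overlap between groups, 24.5% with all knockout libraries below all control libraries and 24.7% with all above. Since the members were picked from this comparison, nothing is read from those counts.

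**Figure D2:**
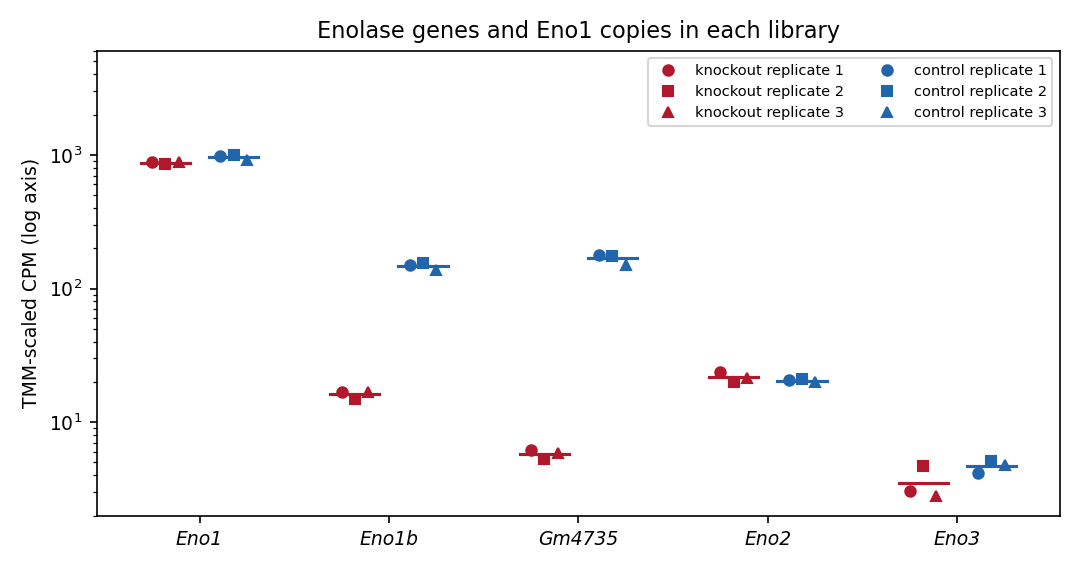
TMM-scaled CPM (log axis) of the 5 genes in each library, with the symbol giving the replicate and the line the mean of 3 libraries. Eno1b and Gm4735 sit between 5.29 and 16.9 CPM in knockout libraries and between 137 and 179 CPM in control libraries, whereas the groups of Eno2 and Eno3 overlap.

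Because the copies share sequence with Eno1, their counts were also added up. Eno1, Eno1b and Gm4735 together had 900.02, 867 and 901 CPM in knockout libraries, against 1316, 1329 and 1205 CPM in control libraries. All knockout sums lay below all control sums. The means were 889 ± 19.2 CPM in knockout and 1283 ± 67.9 CPM in control cultures (SD, n = 3), a fold of 0.693 and a log2 fold change of −0.53 (SE 0.04) when the sum replaced the 3 genes in the fit across all genes. The difference of −394 CPM in the sum was made up of −162 CPM in Gm4735, −131 CPM in Eno1b and −101 CPM in Eno1. The sum of Eno1 and Eno1b without Gm4735 gave a log2 fold change of −0.34, and the sum of all 5 genes one of −0.52 (SE 0.04), so the size of the enolase difference depended on which rows were counted.

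Within the sum of the 3 genes, the copies took up different shares in the 2 genotypes. Gm4735 held 0.685%, 0.610% and 0.650% of the summed counts in knockout libraries, against 13.6%, 13.1% and 12.4% in control libraries. Wilson 95% intervals, which cover counting error only, ran from 0.552% to 0.743% over the knockout libraries and from 12.3% to 13.9% over the control libraries. Eno1b held 1.81% ± 0.0882 in knockout and 11.5% ± 0.133 in control cultures, and Eno1 held 97.5% ± 0.124 in knockout and 75.5% ± 0.688 in control cultures (SD, n = 3). The 2 copies did not keep one ratio to each other. Gm4735 had 0.366, 0.356 and 0.351 counts for each count of Eno1b in knockout libraries, against 1.19, 1.13 and 1.10 in control libraries.

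**Figure D3:**
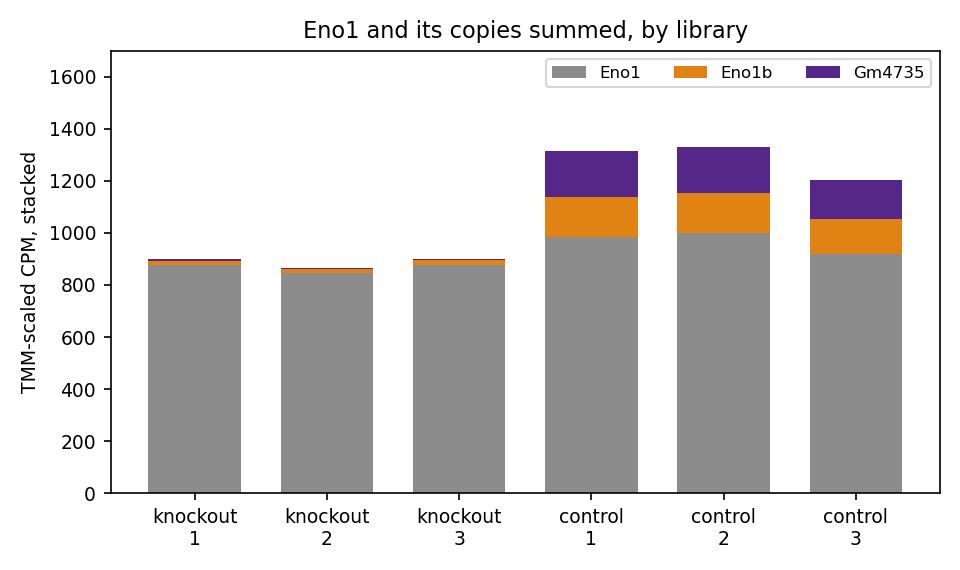
Stacked TMM-scaled CPM of Eno1, Eno1b and Gm4735 in each library. The knockout sums lie between 867 and 901 CPM and the control sums between 1205 and 1329 CPM, and the Eno1b and Gm4735 segments are thin in all 3 knockout libraries.

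Levels of different genes were compared per kilobase of annotated exon, as CPM per kilobase. In knockout cultures the order was Eno1 (161 ± 3.29), Eno1b (8.60 ± 0.597), Eno2 (4.60 ± 0.390), Gm4735 (4.43 ± 0.342) and Eno3 (2.02 ± 0.581). In control cultures it was Eno1 (180.0 ± 8.07), Gm4735 (129 ± 12.1), Eno1b (78.4 ± 4.999), Eno2 (4.35 ± 0.103) and Eno3 (2.70 ± 0.270) (SD, n = 3 each). In control cultures Gm4735 stood far above Eno2. In knockout cultures they differed by less than their spread per kilobase of annotated exon, but not on another length. Per kilobase of principal transcript, Eno2 was at 7.75 ± 0.656 in knockout and 7.33 ± 0.173 in control cultures, so that in knockout cultures it lay above Gm4735, whose only transcript gives the values above. On that scale Eno1 was at 428 ± 8.73 in knockout and 478 ± 21.4 in control cultures. Eno4, a further gene of the family, was low, with 2.07, 2.01 and 2.04 CPM in knockout libraries and 3.36, 2.86 and 2.75 CPM in control libraries. Eno4 was lower in knockout cultures (log2 fold change −0.55, SE 0.19, adjusted p = 0.033 by edgeR's quasi-likelihood test), but the adjusted p was 0.132 without control replicate 1, 0.0592 without control replicate 2, 0.0701 without knockout replicate 1, 0.0768 without knockout replicate 3 and 0.0570 with no filter on low counts.

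A search of all annotated transcripts found 1 further near-identical copy of Eno1 in the count table, Gm5855, a processed pseudogene on chromosome 3. It differs from the Eno1 coding sequence at 47 of 1304 aligned bases and holds the same base as Gm4735 at 4 of the 5 positions named above. Gm5855 had low counts throughout, with 0.639, 0.137 and 0.492 CPM in knockout libraries, against 2.56, 2.99 and 2.08 CPM in control libraries. It was lower in knockout cultures by edgeR's quasi-likelihood test (log2 fold change −2.56, SE 0.39, adjusted p = 6.3e-05). Whether it shares reads with Eno1 was not tested.

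Other enzymes of glycolysis also have pseudogenes in the count table. Of the 27 genes of a glycolysis list described below, 8 had near-identical rows annotated as pseudogenes, 148 in all, of which 135 belong to Gapdh. A further 12 matching rows of other kinds were left out after their values were seen, among them Peli2, a protein-coding gene that shares a short stretch with Gapdh, and AC160637.1, which shares one with Pkm. Of the 148 pseudogenes 56 passed the filter on low counts, 1 was lower (Gm2606) and 55 did not pass the threshold, beside 19.6% higher and 18.7% lower among all tested genes. Of the 56, 48 belong to Gapdh, and most had mean levels under 1 CPM, where a difference passes the threshold less easily. The log2 fold changes of the 56 ran from −1.01 to 0.66, none at −2 or below, against −2.56 and −4.86 for the Eno1 pseudogenes Gm5855 and Gm4735. These 2 pseudogenes held 0.637% to 0.770% of the counts of Eno1 and themselves in knockout libraries and 14.2% to 15.6% in control libraries. For Gapdh, pseudogenes held 66.1% to 82.3% in knockout and 81.5% to 85.7% in control libraries, with overlapping groups. For Pkm the share of its 1 pseudogene was 1.16% to 1.35% in knockout and 1.28% to 1.38% in control libraries, again with overlap.

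**Figure D4:**
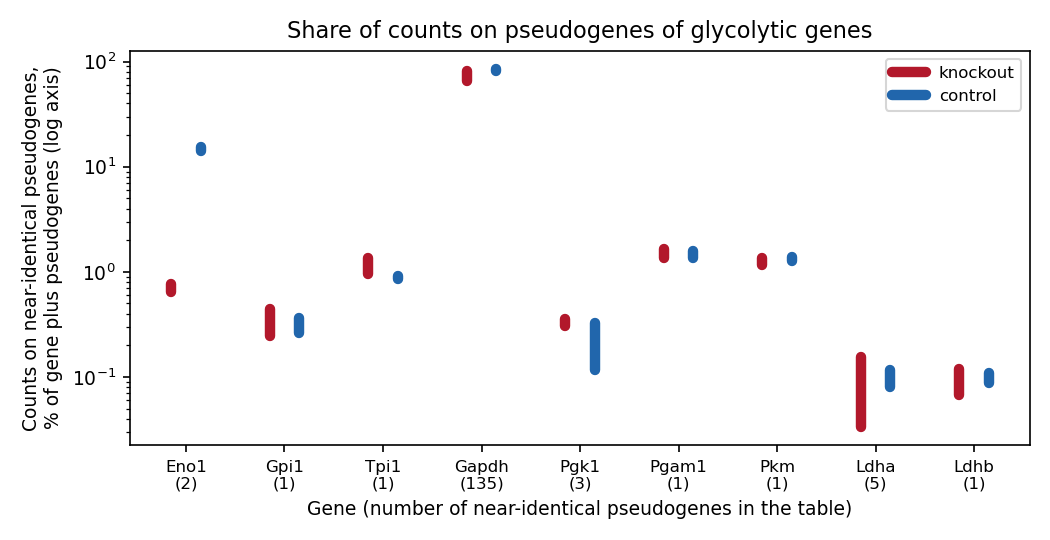
Share of counts (percent, log axis) held by near-identical pseudogenes, out of the counts of each glycolytic gene and its pseudogenes, with bars from the lowest to the highest of 3 libraries. For Eno1 the knockout libraries lie between 0.637% and 0.770% and the control libraries between 14.2% and 15.6%. The ranges overlap for the other genes drawn except Tpi1 (0.961% to 1.37% in knockout and 0.854% to 0.920% in control libraries).

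Eno2 and Eno3 are the enolases of cell types other than astrocytes, so their values stand here beside markers of those cells. Of 18 neuronal markers 17 were tested, with 2 higher, 5 lower and 10 not past the threshold, beside 19.6% higher and 18.7% lower among all tested genes. The summed level of the neuronal list ran from 436 to 450 CPM in knockout and from 498 to 514 CPM in control libraries. Stmn2, a microtubule regulator of neurons, was lower, with 225 ± 9.11 CPM in knockout and 284 ± 8.35 CPM in control cultures (log2 fold change −0.34, SE 0.05). Gap43 was lower too (−0.25, SE 0.06). Map2, a microtubule protein of dendrites, did not pass the threshold, with 88.4 ± 2.395 CPM in knockout and 80.7 ± 5.50 CPM in control cultures. Of 5 neuroendocrine markers, 3 were lower and none higher, and their sums were 386 to 414 CPM in knockout and 428 to 458 CPM in control libraries. Uchl1, which gave the most to those sums, did not pass the threshold (log2 fold change −0.10, SE 0.05). Scg3 (−0.17, SE 0.06) and Scg2, a granin of secretory vesicles (−0.35, SE 0.06), were lower. Eno2 differed by 0.08 (SE 0.08) on the same log2 scale. Of 18 striated muscle markers only 8 passed the filter on low counts, and none was higher. The 1 that was lower was Acta1, skeletal muscle actin, with 1.58 ± 0.306 CPM in knockout and 6.68 ± 0.871 CPM in control cultures (log2 fold change −2.09, SE 0.18). Des (−0.20, SE 0.13) and Pgam2 (−0.42, SE 0.35) did not pass the threshold. Sums over the muscle list were 10.1 to 11.8 CPM in knockout and 16.5 to 17.9 CPM in control libraries. No marker of these lists was at 0 in all libraries, and their part in the Eno2 and Eno3 values was not tested.

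The genes whose profile over the 6 libraries was most like that of each enolase were found by the Euclidean distance between centred log2 CPM, among 12932 candidates. Nearest to Eno1b was Gm11361, at a distance of 0.48, with 5.13 ± 0.926 CPM in knockout and 58.7 ± 3.02 CPM in control cultures. The next were C5ar1, the receptor for complement fragment C5a, at 1.25, and Fpr1, a formyl peptide receptor of phagocytes, at 1.37. Their log2 fold changes were −2.20 and −2.10, against −3.19 for Eno1b. Gm4735 was also nearest to Gm11361 (1.65) and C5ar1 (3.28), followed by C1qa (3.36), a complement subunit made by microglia. Gm11361 was at −3.51 and C1qa at −2.13, against −4.86 for Gm4735, so these were alike in direction more than in size. Eno1b and Gm4735 were picked with results of this comparison known, and the distances largely restate it, so nothing is read from the genes found. For Eno1 the nearest were Vac14, Eif1b and Mob3c, at 0.03 to 0.04, for Eno2 they were Cables2, Tpm3-rs7 and Ranbp1, at 0.04 to 0.06, and for Eno3 Fam13c, Grk4 and Cbs, at 0.13 to 0.20.

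The genes beside the copies on their chromosomes were described with the same values. The 5 nearest tested genes on each side of Eno1b, 10 in all, lay up to 2089 kb away. Their log2 fold changes were −0.35 to 0.38. Among them 2 were higher, 2 lower and 6 not past the threshold, beside 38.3% past it among all tested genes. The largest were Tnfaip8 (0.38, SE 0.06) and Dmxl1 (0.36, SE 0.06), both higher in knockout cultures. By the same rule the 10 neighbours of Gm4735 lay up to 2901 kb away, with log2 fold changes of −0.72 to 1.20. Of these 4 were higher, 1 lower and 5 not past the threshold, again near that share. Zfp804a (1.20, SE 0.66) and Gm13684 (1.19, SE 0.90) had the largest values, at mean levels of 0.277 CPM or less in both genotypes, and neither passed the threshold. Frzb, which encodes a secreted Wnt antagonist and is named after its values were seen, had the largest difference that passed it, with 4.27 ± 0.524 CPM in knockout and 2.10 ± 0.311 CPM in control cultures (1.02, SE 0.19, adjusted p = 0.00027 by edgeR's quasi-likelihood test).

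The title of the study names HIF, and the core of its binding motif was looked up in the promoters of the enolases, from 250 bases before to 50 after the start, in RefSeq on GRCm38.p6. Windows were at hand for Eno1 (3 starts, of which 2 windows overlap), Eno2 and Eno3. On both strands, ACGTG was in none of these windows. GCGTG was found 2 times in each Eno1 window, 1 time in that of Eno3 and not in that of Eno2. Of all 32851 promoters in the same table, 19.6% held ACGTG, 32.4% held GCGTG and 43.8% held either.

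Enolase is 1 step of a pathway, and the enzymes of the other steps were followed in the same fit. Of 27 listed enzymes, lactate dehydrogenases and regulators, 23 passed the filter on low counts. In knockout cultures 5 were higher, 8 were lower and 10 did not pass the threshold (adjusted p under 0.05, edgeR's quasi-likelihood test), beside 19.6% higher and 18.7% lower among all tested genes, and with a median log2 fold change of 0.01 over the 23 and −0.00175 over all tested genes. Their summed level was 5036 to 5162 CPM in knockout and 5376 to 5724 CPM in control libraries. Aldoc, the aldolase of brain and itself an astrocyte marker, was lower, with 57.1, 57.1 and 56.0 CPM in knockout and 103, 106 and 100.5 CPM in control libraries (log2 fold change −0.86, SE 0.05, adjusted p = 2.5e-10 by edgeR's quasi-likelihood test). Pfkp, the platelet-type phosphofructokinase, was lower (−0.77, SE 0.04), as were the muscle-type form Pfkm (−0.51, SE 0.06) and the widely expressed aldolase Aldoa (−0.39, SE 0.04). Gpi1, which converts glucose-6-phosphate to fructose-6-phosphate (−0.29, SE 0.05), and Tpi1, which interconverts the triose phosphates (−0.28, SE 0.04), were lower by less. Pgam1, which makes the substrate of enolase, had 303, 325 and 305 CPM in knockout and 344, 353 and 339 CPM in control libraries (−0.15, SE 0.04, adjusted p = 0.0093 by edgeR's quasi-likelihood test), and its adjusted p was 0.0558 without knockout replicate 1.

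In the other direction, Pfkfb3, which makes the phosphofructokinase activator fructose-2,6-bisphosphate, had 102, 106 and 101 CPM in knockout and 72.2, 67.9 and 75.8 CPM in control libraries (log2 fold change 0.52, SE 0.05, adjusted p = 4.6e-07 by edgeR's quasi-likelihood test). The other 4 higher genes were Hk1, Pfkl, Bpgm and Pfkfb4, and the remaining lower one was Ldhb. Pfkfb4 did not pass the threshold with total-count scaling or without knockout replicate 1, knockout replicate 3 or control replicate 2. Pkm, the pyruvate kinase that uses the product of enolase, had 1249 ± 26.6 CPM in knockout and 1230 ± 61.1 CPM in control cultures, with overlapping groups. Hk2, Pgk1 and Ldha did not pass the threshold, at log2 fold changes of 0.05, −0.07 and 0.01 (SE 0.04 each). Pgk1 passed it with total-count scaling (−0.14, adjusted p = 0.0151 by edgeR's quasi-likelihood test) and without knockout replicate 2 (−0.11, adjusted p = 0.0189 by the same edgeR test). Gapdh had 31.7, 13.3 and 31.5 CPM in knockout and 11.01, 17.5 and 13.2 CPM in control libraries, and knockout replicate 2 lay within the control range. It did not pass the threshold (0.88, SE 0.43), but passed it without that library (1.18, adjusted p = 0.0024 by edgeR's quasi-likelihood test) and, with all libraries, under limma-voom (adjusted p = 0.0237) and edgeR without the robust option (adjusted p = 0.0101). Its counts are uncertain because of its many pseudogenes.

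**Figure D5:**
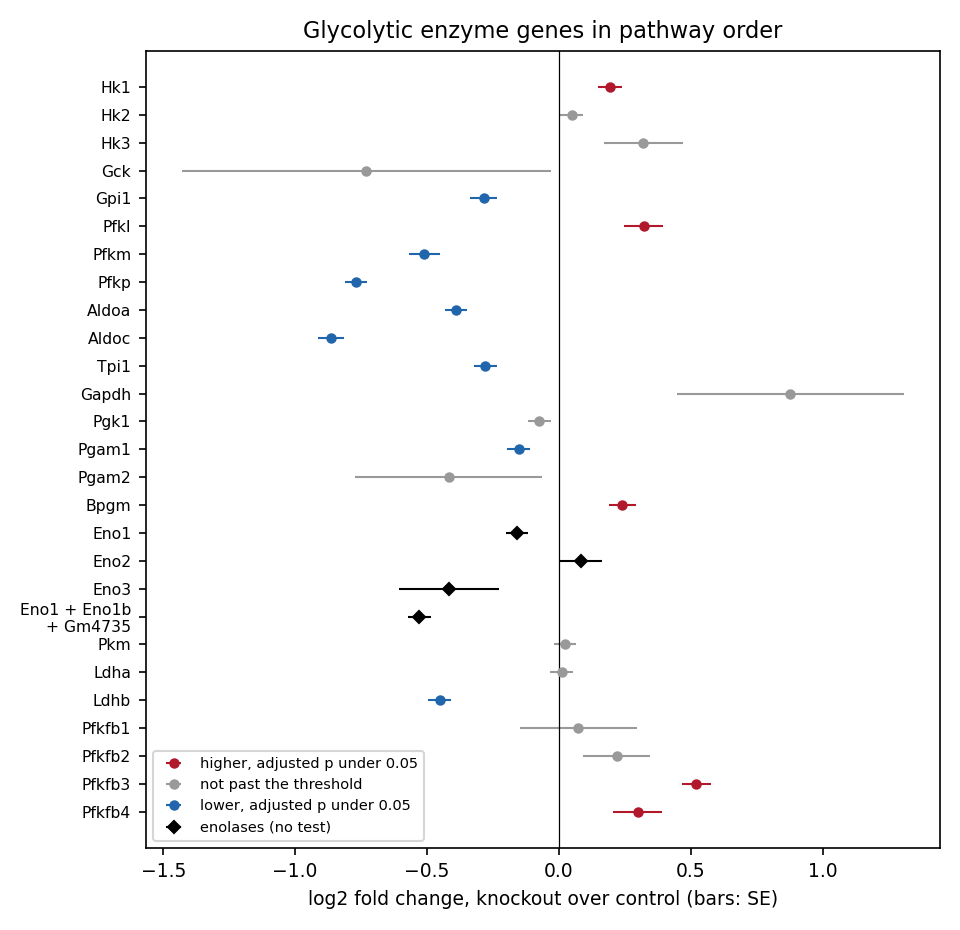
Log2 fold change of knockout over control, with SE, for Eno1, Eno2, Eno3, the sum of Eno1, Eno1b and Gm4735, and the tested genes of the glycolysis list. The sum lies at −0.53 and the listed enzymes lie between −0.86 and 0.88. Eno1b (−3.19) and Gm4735 (−4.86) are not drawn on their own.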

How the data were processed

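Poly-T bead libraries were made from Trizol-extracted RNA, per the labels' protocols. The submitters' processing notes name HISAT2 2.2.1, featureCounts 2.0.6 and the build GRCm38 (mm10). The authors deposited raw counts per gene, with no normalisation. Annotation release, strand setting, read length and the handling of multi-mapping reads are not given in the sources used, so counts of near-identical genes can be shared or lost. Table columns were matched to libraries by the library names in the labels.

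Of 54532 genes, 32515 had a count and 18530 passed filterByExpr (minimum count 10, minimum total 15). edgeR 4.0.16 in R 4.3.3 was run on all of them with TMM factors, robust glmQLFit and glmQLFTest on genotype, two-sided, with Benjamini-Hochberg adjustment and a threshold of 0.05. Standard errors came from the test statistic. DESeq2 1.42.0, limma-voom 3.58.1, other scalings and filters, a replicate block and leaving out each library were alternatives. The script was tested on simulated data. Replicates of one genotype were further apart than sampling noise, with a chi-square per gene of 5.97 to 21.8.

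Annotation and transcripts were GENCODE of the same build. Near-identical rows were those with at least 95% identity over 100 bases by BLAST. The restriction to annotated pseudogenes, and list counts without knockout replicate 2, were added after seeing the data. The members and lists were chosen with earlier results of these data known. Genes were named by rule: the members, Neo1, Eno4, the isozyme of each glycolytic step with the highest level per kilobase, list genes past the threshold with a log2 fold change of at least 0.5 in size, the 3 most alike genes (mean log2 CPM of at least 1), the 2 neighbours with the largest change and the 3 most abundant markers of each list. Gm5855 came from the search for copies, and the other genes behind a count were named after their values were seen. No protein sequences were compared.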

Additional observations from a re-analysis of the deposited data

How the results depend on the processing

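Under 15 alternatives, Eno1b, Gm4735, Eno2 and Eno3 kept their direction and moved by less than the spread between replicates, while Eno1 was −0.22 with total-count scaling, which moved the median of all genes to −0.07. The sum of Eno1, Eno1b and Gm4735 was −0.59 with that scaling and −0.34 for Eno1 and Eno1b alone. The Eno1b share, −9.66 percentage points in the report's comparison, was −11.4 over Eno1 and Eno1b and −9.48 over all 5 genes. Leaving out 1 library gave −0.20 to −0.14 for Eno1, −3.24 to −3.13 for Eno1b, −4.94 to −4.80 for Gm4735, 0.016 to 0.14 for Eno2, −0.67 to −0.29 for Eno3 and −0.58 to −0.51 for the sum. Genes not past the threshold changed sign: with total-count scaling Hk2 was −0.016, Pkm −0.043 and Ldha −0.055, with upper-quartile factors Ldha was −0.0060, and leaving out 1 library gave −0.020 (without control replicate 3) to 0.051 for Pkm and −0.035 (likewise) to 0.028 for Ldha. Total-count scaling gave 2921 higher and 4499 lower genes, against 3627 and 3466 with TMM. Without knockout replicate 2, 3 astrocyte markers were higher and 8 lower, 3 neuronal markers higher and 4 lower, 6 glycolysis genes higher and 9 lower and 2 of 59 pseudogenes lower, with the counts of the other marker lists and of the neighbours as reported.

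Replicate numbers are shared between genotypes, but no pairing of the libraries was seen: deviations of same-numbered libraries correlated at 0.015, 0.019 and −0.0082. With so few libraries per genotype, and some standing apart, these values cannot exclude a pairing. With a replicate block the values were −0.16 for Eno1, −3.19 for Eno1b, −4.86 for Gm4735 and −0.53 for the sum, and 3501 genes were higher and 3383 lower.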
